A study of Mus musculus with 12 samples.

Results

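The 38 splicing factor and SR kinase genes described here are the genes, among 18193 measured, whose symbol names an SR protein (Srsf), a Tra2 protein, an hnRNP protein, an SR protein kinase (Srpk) or a CDC-like kinase (Clk). They comprised 10 Srsf, 2 Tra2, 19 Hnrnp, 3 Srpk and 4 Clk genes. Each gene was read from the probe set with the highest mean signal over all arrays among the 119 probe sets that carry its symbol alone. The genes were thus selected on their symbols, but these families were chosen by the low signal of Tra2a and Srpk2 in p53-/- heart, lung and liver. The values of Tra2a and Srpk2 there are given as a description with no test, and the other 36 genes were examined for the same pattern.

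RNA came from p53-/-, p66-/- and wild type (WT) Sv/129 mice aged 2 months. The p53-/- mice lack the tumour suppressor p53, and the p66-/- mice lack p66Shc, the isoform of Shc1 linked to oxidative stress. Thymus, heart, lung and liver were hybridised to 12 Affymetrix mouse genome arrays, 1 for each genotype and tissue, and each held RNA pooled from 4 mice. A difference within a tissue therefore has no replicate check, and it was counted when it reached 1 on the log2 scale, that is 2-fold. All values below are log2 signals or log2 differences from the WT array of the same tissue.

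SR proteins bind exonic enhancers and recruit the splicing machinery, whereas hnRNP proteins often bind silencers and oppose them. Tra2a and Tra2b are SR-like proteins that bind GAA-rich exonic enhancers. The kinases SRPK and CLK phosphorylate the serine- and arginine-rich domains of SR proteins, SRPK mainly in the cytoplasm to permit nuclear import and CLK in the nucleus. Many of these genes control their own level through exons or introns whose inclusion sends the transcript to nonsense-mediated decay, and they carry several alternative 3' ends, so that probe sets of 1 gene can report different transcripts.

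The labelled tissues carried their defining markers. Mean signal of the cardiomyocyte list was 13.8 to 14.1 on the heart arrays, that of the lung epithelium list 13.6 to 13.8 on the lung arrays, and that of the hepatocyte list 14.2 to 14.3 on the liver arrays. Thymocyte markers averaged 11.3 and 11.2 on the p53-/- and p66-/- thymus arrays, against 10.1 on the array labelled WT thymus, which also held salivary gland transcripts at a mean of 12.4, against 5.67 and 5.73 on the knock-out thymus arrays. In lung, the difference between the 3' and 5' control probe sets of Gapdh, a measure of RNA integrity, was 0.659 in p53-/- and 1.32 in p66-/- mice, against 2.29 in WT mice. The 18S control differed from WT by 4.27 in p53-/- lung and by -4.89 in p66-/- thymus. Hepatocyte transcripts averaged 7.30 in p53-/- lung and 10.11 in p66-/- lung, against 11.1 in the lung of WT mice. Salivary gland transcripts averaged 5.85 in p53-/- and 6.02 in p66-/- heart, against 8.05 in WT heart, and hepatocyte transcripts 6.70 in p53-/- and 7.46 in p66-/- heart, against 8.12 in WT heart. Cardiomyocyte transcripts averaged 6.17 in p53-/- and 8.54 in p66-/- thymus, against 8.67 in WT thymus, B cell transcripts 7.92 in p53-/- and 8.91 in p66-/- thymus, against 8.04 in WT thymus, and skeletal muscle transcripts averaged 9.45 in p53-/- thymus, against 6.48 in that of WT mice. Shc1 was not lower on the p66-/- arrays, which at 9.14 to 9.83 all lay above the WT arrays at 8.57 to 9.09. Its probe set is not known to lie in the part that p66Shc alone carries, so it checks nothing. The signal of the p53 gene itself was not analysed here.

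Promoters are shown for both Tra2 genes, for Srpk2 and for Hnrnpl, the genes on which the comparison outside thymus turns. They are RefSeq sequences of GRCm38.p6 from 250 bases before to 50 bases after the start, on the strand of the gene. Where RefSeq gives several starts, as the 3 of Srpk2, the window richest in G and C was taken. Capitals mark matches on either strand to the TATA box (TATAAA), the CCAAT box, the GC box (GGGCGG), an ETS motif (CCGGAAG), part of the heat shock element (GAANNTTC), the E2F motif in 2 forms (TTTCCCGC and also TTTGGCGC) or the p53 half-site.
Tra2a, chr6:49264003-49264302, minus strand: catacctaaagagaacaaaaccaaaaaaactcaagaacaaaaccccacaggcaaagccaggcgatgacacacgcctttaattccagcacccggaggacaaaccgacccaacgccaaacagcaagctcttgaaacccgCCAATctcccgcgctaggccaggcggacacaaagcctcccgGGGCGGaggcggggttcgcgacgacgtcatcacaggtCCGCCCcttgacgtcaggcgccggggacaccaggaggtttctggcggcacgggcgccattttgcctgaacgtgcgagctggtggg
Tra2b, chr16:22265956-22266255, minus strand: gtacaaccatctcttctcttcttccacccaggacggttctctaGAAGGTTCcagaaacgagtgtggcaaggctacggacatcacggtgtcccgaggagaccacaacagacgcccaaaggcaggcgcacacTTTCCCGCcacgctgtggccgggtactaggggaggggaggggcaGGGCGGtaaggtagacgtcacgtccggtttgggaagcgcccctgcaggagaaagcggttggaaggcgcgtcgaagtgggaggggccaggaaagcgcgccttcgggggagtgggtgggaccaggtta
Srpk2, chr5:23675918-23676217, minus strand: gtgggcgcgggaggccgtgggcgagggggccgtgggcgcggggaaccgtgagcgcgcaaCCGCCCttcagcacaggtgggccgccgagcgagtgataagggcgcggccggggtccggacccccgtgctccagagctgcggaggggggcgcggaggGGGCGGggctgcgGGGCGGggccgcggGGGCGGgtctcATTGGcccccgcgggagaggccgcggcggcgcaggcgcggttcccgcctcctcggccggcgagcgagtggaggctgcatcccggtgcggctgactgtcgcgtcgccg
Hnrnpl, chr7:28810640-28810939, plus strand: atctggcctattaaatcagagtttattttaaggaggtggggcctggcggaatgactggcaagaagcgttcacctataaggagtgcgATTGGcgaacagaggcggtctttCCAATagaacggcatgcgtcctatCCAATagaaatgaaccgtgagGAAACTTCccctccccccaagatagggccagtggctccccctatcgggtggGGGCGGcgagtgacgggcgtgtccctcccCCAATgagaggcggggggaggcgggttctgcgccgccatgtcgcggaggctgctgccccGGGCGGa
GGGCGG, the core of the GC box, was found in all 4 windows, and no window of the 4 held the p53 half-site. Promoters were given for 35 of the 38 genes, in 49 windows. GGGCGG occurred in 79.6% of these windows, against 35.7% of all 32851 promoters, and CCAAT in 46.9%, against 37.4%. TTTCCCGC, a form of the E2F motif, was in 10.2% of them, against 1.07% of all, those of Srsf1, Srsf10, Hnrnpr, Hnrnpul1 and Tra2b. GAANNTTC, part of the heat shock element, was in 12.2%, against 7.86%, and CCGGAAG, an ETS motif, was in 20.4%, against 8.86%. TATAAA was in 12.2%, against 13.6%, and TTTGGCGC in 0%, against 0.514%. The p53 half-site was found in 2.04%, that of Srsf12 alone, against 8.36% of all promoters. Both strands were searched, TTTCCCGC read on the other strand can share bases with GGGCGG, and a match is a description of the sequence only.

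Tra2a gave 6.36 in p53-/- heart and 7.11 in p66-/- heart, against 8.05 in WT heart. In lung its signal was 8.73 in p53-/- and 10.43 in p66-/- mice, against 10.92 in WT, and in liver 7.92 in p53-/- and 8.63 in p66-/- mice, against 8.95 in WT. The p53-/- array was thus the lowest of the 3 genotypes in each of these tissues, with differences from WT of -1.69, -2.19 and -1.03, with the p66-/- array between. In thymus the order was different, with 9.66 in p53-/- and 10.21 in p66-/- mice, against 8.64 on the WT array.

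Srpk2 followed the same order. Its signal was 6.91 in p53-/- and 7.47 in p66-/- heart, against 8.38 in WT heart. In lung it was 6.72 in p53-/- and 8.28 in p66-/- mice, against 9.41 in WT, and in liver 7.13 in p53-/- and 7.44 in p66-/- mice, against 8.41 in WT. Differences from WT in p53-/- mice came to -1.47, -2.69 and -1.28. In p66-/- mice they were -0.91, -1.13 and -0.96, and Srpk2 was the only 1 of the 38 genes to be at least 1.5-fold below WT in p66-/- heart, lung and liver alike, as were 0.192% of all genes. The WT values of Srpk2 there had entered the choice of the families, so this is a description only. Its next brightest probe set differed by 0.19 in p66-/- lung and by 0.03 in p66-/- liver. Thymus again ran the other way, at 9.05 in p53-/- and 9.46 in p66-/- mice, against 7.86 on the WT array.

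**Figure D1:**
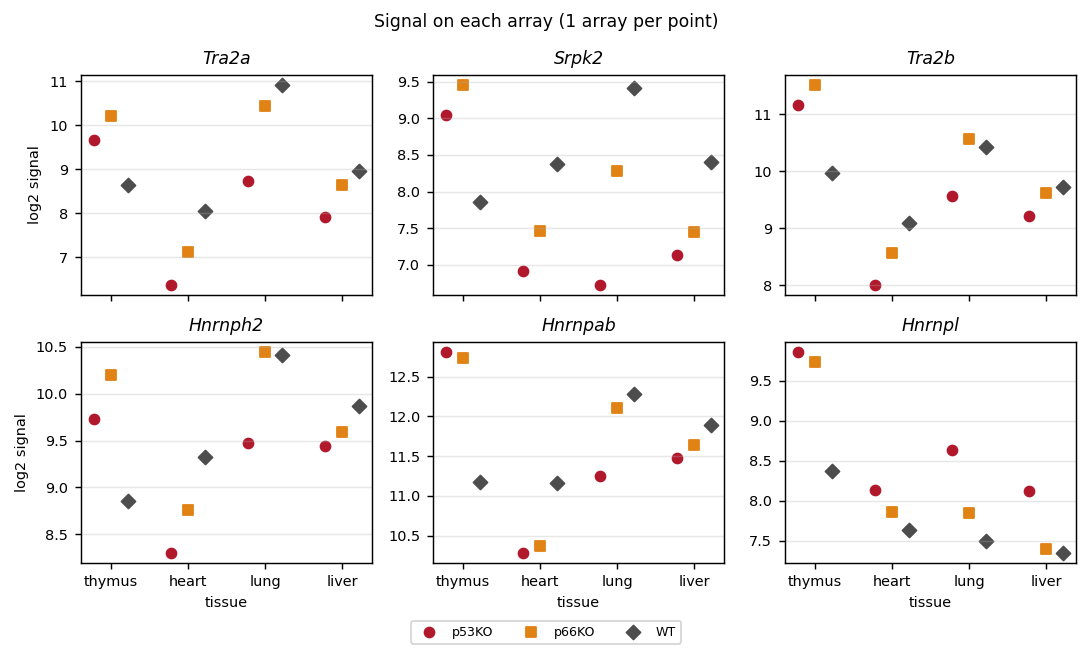
Log2 signal (vertical axes, each with its own range) of 6 genes in 4 tissues, 1 array per point, p53KO left, p66KO in the middle and WT right. Tra2a and Srpk2 are lowest on the p53KO array of heart, lung and liver, whereas Hnrnpl is highest there.

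These values belong to the brightest probe set, and other probe sets of both genes gave other differences. The next brightest probe set of Tra2a, with a mean signal of 7.52 against 8.80, was 0.35 higher in p53-/- than in WT heart, 0.68 higher in lung and 0.20 lower in liver (difference -0.20). Another, dim one, with a mean of 5.11, differed by -0.74, -2.33 and -1.17. For Srpk2 the next brightest, almost as bright at 7.97 against 8.04, differed by -0.20, -0.27 and 0.11 in heart, lung and liver, whereas the one after it, with a mean of 6.75, differed by -1.77, -1.85 and -1.46. Low signal of either gene in p53-/- tissues was thus a property of some of its probe sets. In thymus the leading 2 probe sets of each gene agreed, with differences of 1.03 and 1.08 for Tra2a and of 1.19 and 1.43 for Srpk2.

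Most of the other 36 genes did not share the depth of this change. Of them, 18 were below WT by any amount in all of p53-/- heart, lung and liver, against 22% of all genes, and 5 were above WT in all of them, against 25.9%. None was lower by 1.5-fold or more in all 3 tissues, as were 1.08% of all genes. The 18 were the hnRNP genes Hnrnpa0, Hnrnpa2b1, Hnrnpab, Hnrnpc, Hnrnpd, Hnrnpdl, Hnrnpf, Hnrnph1, Hnrnph2, Hnrnpk, Hnrnpm, Hnrnpr, Hnrnpu and Hnrnpul2 with Tra2b, Srsf1, Srpk1 and Clk1. The 5 higher ones were Srsf5, Srsf9, Hnrnpa1, Hnrnpl and Clk4. Of these, Hnrnpa1 gave -0.21, -0.82 and 0.26 in heart, lung and liver with its next brightest probe set. When the arrays were quantile normalized again, which brings their upper signal ranges together, 10 of the 36 genes were lower in all 3 tissues, against 16.8% of all genes, and 9 were higher, against 27.4%.

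At the 2-fold threshold, 2 of the 36 genes were lower in p53-/- heart, against 2.08% of all genes, and none was higher, against 0.115%. They were Tra2b, at 8.01 in p53-/- and 9.10 in WT heart, and Hnrnph2, which binds runs of G, at 8.31 in p53-/- and 9.33 in WT heart. Hnrnpab, a protein related to Hnrnpd, followed with a difference of -0.88, and the highest were Hnrnpl (0.49), Clk4 (0.37) and Clk3 (0.27). After repeated quantile normalization no gene of the 36 reached 2-fold in heart, with no share of all genes given for that setting. Of the 8 hepatocyte markers measured, 6 were 2-fold lower in p53-/- heart, as were 6 of 10 salivary gland markers, and the part of either in these differences was not tested.

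In p53-/- lung, 5 of the 36 were 2-fold lower, against 4.14% of all genes, and 1 was higher, against 0.616%. The lower ones were Hnrnpr (-1.33), Srsf1 (-1.09), Hnrnpk (-1.09), Hnrnpf (-1.06) and Hnrnpab (-1.04). Srsf1 is a founding SR protein, and Hnrnpk binds C-rich sequence. Hnrnpl, which binds CA repeats, was higher, at 8.64 in p53-/- lung against 7.49 in WT lung, and Srsf9 (0.79) and Srsf5 (0.60) came next. Repeated quantile normalization left 1 lower and 1 higher, with no share of all genes given for that setting. The Gapdh and 18S controls and the hepatocyte transcripts differed between the same lung arrays, and their part in these counts was not tested.

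In p53-/- liver, none of the 36 was 2-fold lower, against 0.418% of all genes, or higher, against 0.0934%. Tra2b (-0.51), Hnrnpa0 (-0.46) and Srsf11 (-0.43) were the lowest, and Hnrnpl (0.77), Srsf9 (0.37) and Srsf4 (0.35) the highest.

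Medians of the families outside thymus are given as a description of these arrays, with no test between families. Median differences of the 19 hnRNP genes were -0.37 in p53-/- heart, -0.58 in lung and -0.29 in liver, and 16, 15 and 16 of them lay below WT. The 10 SR protein genes had medians of -0.13, 0.14 and 0.21, so that in lung and liver most of them lay at or above WT. The 4 Clk genes had medians of 0.01, -0.45 and 0.09. After repeated quantile normalization the medians were -0.02, -0.32 and -0.11 for the hnRNP genes, 0.11, 0.28 and 0.30 for the SR protein genes and 0.13, -0.24 and 0.12 for the Clk genes. Over the 36 genes the medians were -0.24, -0.23 and -0.17, whereas all genes had medians of 0.03, 0.07 and 0.00. Bright genes as a whole were lower in these arrays, since genes no dimmer than their tissue's median had medians of -0.13, -0.11 and -0.08. After repeated quantile normalization the medians of the 36 were -0.01, -0.02 and -0.03.

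**Figure D2:**
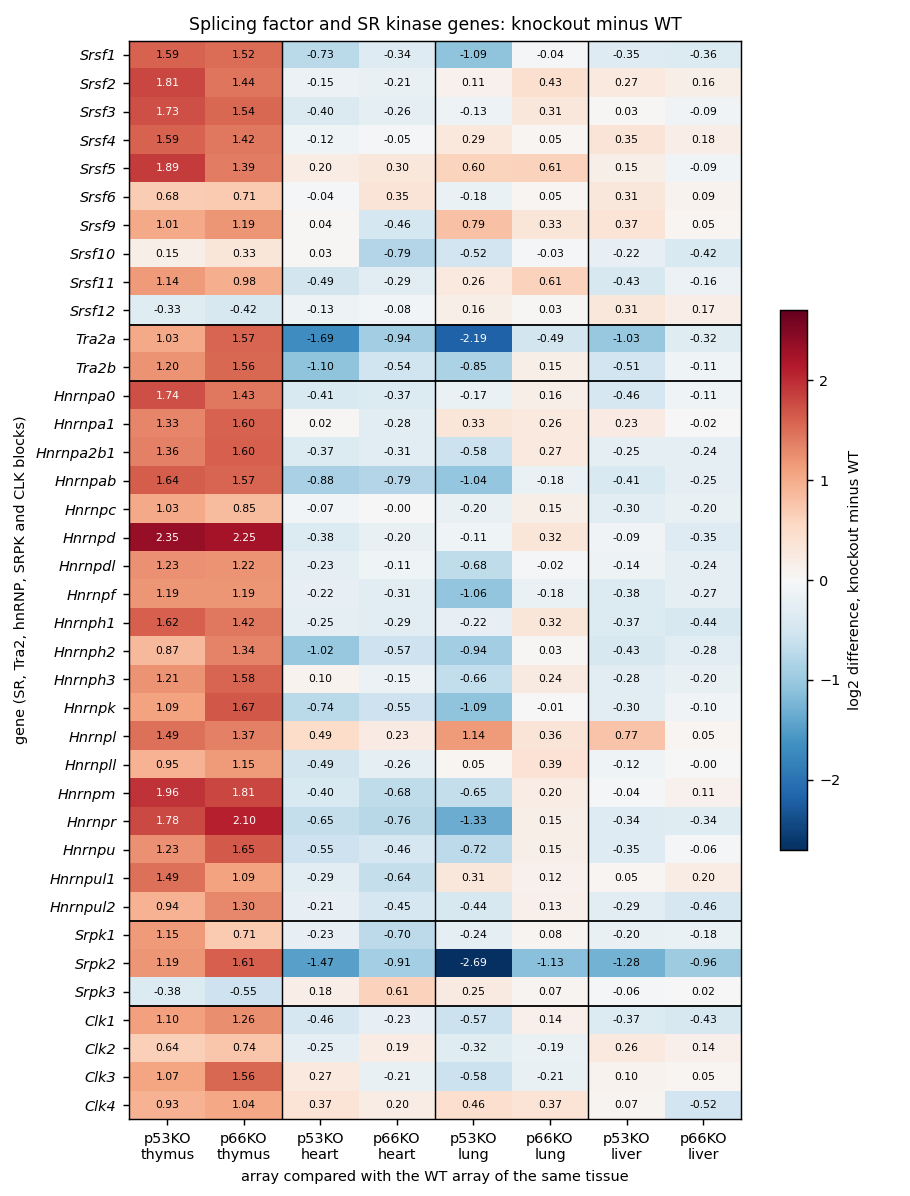
Log2 difference of each of the 38 genes (rows, by family) between a knock-out array and the WT array of its tissue (columns, p53KO left of p66KO), with red for higher and blue for lower in the knock-out. Both thymus columns are red for 36 of 38 genes, and outside thymus the rows of Tra2a, Tra2b and Srpk2 are the bluest in p53KO heart.

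Over heart, lung and liver together, limma was fitted to all genes of the 9 arrays with tissue as a block, so that the tissues serve as replicates of the genotype. Of the 36 genes, 3 were lower in p53-/- than in WT mice at an adjusted p under 0.05, against 2.01% of all genes, and 1 was higher, against 0.104%. Tra2b was lower by 0.82 (difference -0.82, SE 0.166, limma adjusted p = 0.0348). Its signal was 9.57 in p53-/- and 10.42 in WT lung, and 9.22 in p53-/- and 9.73 in WT liver, so that all 3 tissues ran 1 way. Hnrnph2 differed by -0.80 (SE 0.171, adjusted p = 0.0399), with 9.48 in p53-/- and 10.41 in WT lung and 9.44 in p53-/- and 9.87 in WT liver. Hnrnpab differed by -0.77 (SE 0.176, adjusted p = 0.0454), at 10.29 in p53-/- and 11.16 in WT heart, 11.24 and 12.28 in the lungs of p53-/- and WT mice, and 11.48 and 11.89 in their livers. Hnrnpl differed by 0.80 (SE 0.154, adjusted p = 0.0296), at 8.13 in p53-/- and 7.64 in WT heart and at 8.12 in p53-/- and 7.35 in WT liver. Srsf1 and Hnrnpk missed the threshold, with differences of -0.72 (limma adjusted p = 0.0608) and -0.71 (adjusted p = 0.067).

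All 4 calls depended on 3 pairs of arrays. Leaving out heart, lung or liver left none of the 36 past the threshold, as did tissue as a random block, a gene's probe sets averaged, or a fit of the p53-/- and WT arrays alone. Repeated quantile normalization left 1 higher and none lower. With the thymus arrays added, none of the 36 passed, against 0.0055% of all genes. An unadjusted p under 0.05 was reached by 4 of them, against 1873 of all 18193 genes.

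Probe sets of 1 gene often differed in sign outside thymus. Of the 38 genes, 26 had over 1 probe set, and in 22 of them over 1 was at least as bright as the median gene (mean signal 7.24). Among these 22, the differences between p53-/- and WT had both signs in 11 genes in heart, 12 in lung and 11 in liver, against 1 in thymus, where most differences lay well above 0. Their median spread was 0.59 in heart, 1.10 in lung and 0.30 in liver, against 0.56 in thymus. Those of 5 genes in lung reached 1.5-fold in both directions, namely Srsf1, Tra2a, Hnrnpf, Hnrnpu and Hnrnpab. Over all probe sets, dim ones included, Srsf1 spread the most, with 7 probe sets between -1.42 and 2.04 in lung. Tra2a and Srpk2 came next. Hnrnpf, which like Hnrnph2 binds runs of G, had 2 probe sets at -1.06 and -1.15 and 2 at 1.17 and 0.78. Hnrnpr ranged from -1.33 to 0.88, or to 0.29 among its bright probe sets. Hnrnpu, a scaffold protein of the nucleus, ranged from -0.72 to 1.31.

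Of the 4 genes that passed the test, Hnrnph2 has 1 probe set. The next brightest probe sets of the others gave differences over the 3 tissues of -0.17 for Tra2b (SE 0.178, limma adjusted p = 0.566), -0.18 for Hnrnpab (SE 0.149, adjusted p = 0.465) and 0.06 for Hnrnpl (SE 0.158, adjusted p = 0.822). With the next brightest probe set of every gene that has one, 2 genes were lower and none higher. They were Hnrnph2 and Srsf10, whose next probe set differed by -0.98 (SE 0.206, adjusted p = 0.0383), whereas its brightest was at 0.03 in heart, -0.52 in lung and -0.22 in liver. Srsf10 is an SR protein that represses splicing once it is dephosphorylated, as after heat shock.

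**Figure D3:**
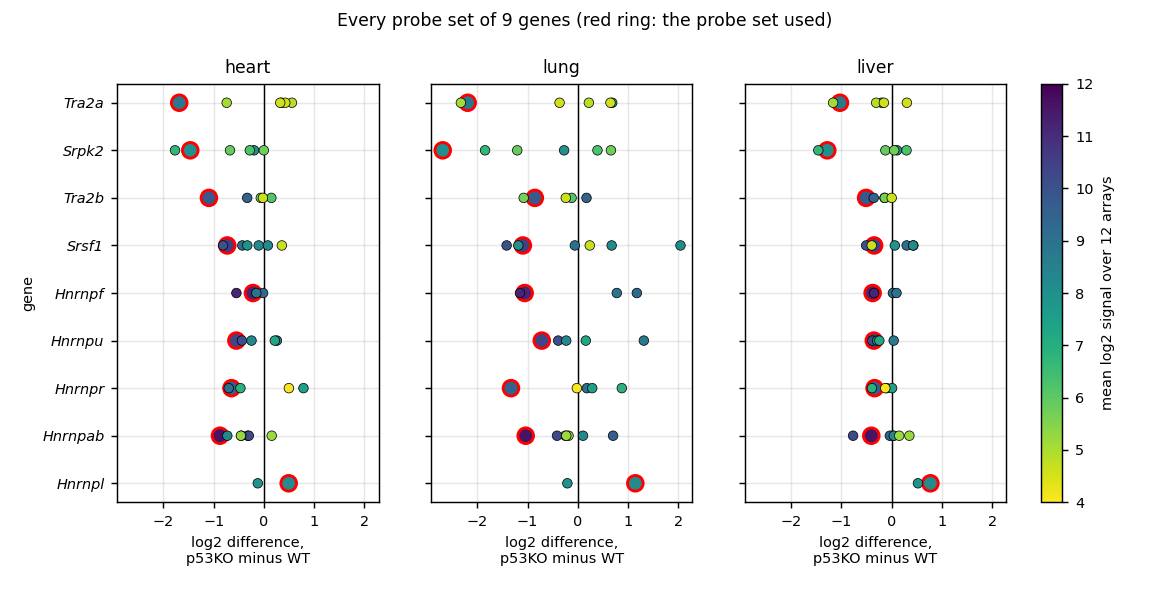
Log2 difference between p53KO and WT (horizontal axes) for every probe set of 9 genes (rows) in heart, lung and liver, coloured by mean signal over the 12 arrays, with a red ring on the probe set used. In lung the probe sets of Srsf1 run from -1.42 to 2.04, on both sides of 0.

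In p66-/- mice, whose differences use the same WT arrays, no gene of the 38 was 2-fold lower in heart, against 1.67% of all genes, and none was higher, against 0.181%. Lowest there were Tra2a (-0.94), Srpk2 (-0.91), Srsf10 (-0.79), Hnrnpab (-0.79) and Hnrnpr (-0.76). The highest were Srpk3 (0.61), a kinase of striated muscle, Srsf6 (0.35) and Srsf5 (0.30). The next brightest probe set of Srpk3 differed by 0.11 in p66-/- heart. In lung, Srpk2, whose WT value had entered the choice of the families, was 2-fold lower (0.313% of all genes) and none was higher (0.341%). After it came Tra2a (-0.49), Clk3 (-0.21), Clk2 (-0.19) and Hnrnpf (-0.18), and Srsf5 and Srsf11 (both 0.61) and Srsf2 (0.43) were the highest. In liver none was 2-fold lower (0.302%) or higher (0.0824%). Srpk2 (-0.96), Clk4 (-0.52), Hnrnpul2 (-0.46), Hnrnph1 (-0.44) and Clk1 (-0.43) were the lowest, and no gene exceeded 0.20 (Hnrnpul1). Medians of the 38 genes were -0.29, 0.14 and -0.14 in heart, lung and liver.

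None of the 38 passed limma for p66-/- against WT over heart, lung and liver, against 0.0275% of all genes. Of all 18193 genes, 1338 had an unadjusted p under 0.05, as had 3 of the 38. These were Hnrnpab, Tra2a and Srpk2, all below WT, and the WT values of Tra2a and Srpk2 had entered the choice of the families. Over 4 tissues none passed, against 0% of all genes, and 1 had an unadjusted p under 0.05, as had 717 of all 18193 genes. Between p53-/- and p66-/- mice none of the 36 passed in either fit, against 0% of all genes. At an unadjusted p under 0.05 were 7 over 3 tissues and 1 over 4, against 1382 and 749 of all 18193 genes.

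Thymus differed from the other tissues in both knock-outs. Of the 38 genes, 29 were 2-fold higher in p53-/- than on the WT thymus array, against 8.89% of all genes, and none was 2-fold lower, against 4.81%. In p66-/- thymus 30 were higher, against 12.7%, and none was lower, against 4.78%. The medians were 1.20 in p53-/- and 1.40 in p66-/- thymus, against -0.01 and -0.03 for all genes and 0.29 and 0.43 for genes no dimmer than their tissue's median. Hnrnpd, which binds AU-rich elements and promotes mRNA decay, had the greatest difference, at 10.54 in p53-/- and 10.43 in p66-/- thymus, against 8.18 on the WT array. Next in p53-/- thymus were Hnrnpm (1.96), Srsf5 (1.89) and Srsf2 (1.81), and in p66-/- thymus Hnrnpr (2.10), Hnrnpm (1.81) and Hnrnpk (1.67). All 19 hnRNP genes lay above WT in both, by 0.87 to 2.35 in p53-/- thymus.

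The exceptions in thymus were Srpk3 (-0.38 and -0.55) and Srsf12 (-0.33 and -0.42), which was near the lowest signal of the array at 3.52 to 3.95. Srsf10 (0.15 and 0.33), Srsf6 (0.68 and 0.71), Clk2 (0.64 and 0.74) and, in p66-/- mice, Srpk1 (0.71) had the next lowest differences. After repeated quantile normalization the medians were 0.77 and 0.80, and 14 and 12 genes were 2-fold higher. No share of all genes is given for that setting, so these counts cannot be set against it. The WT array lies on the lower side of both differences, and its salivary gland transcripts, with fewer thymocyte markers, move with them. So do cardiomyocyte transcripts (median -2.99) and skeletal muscle transcripts (median 3.04) in p53-/- thymus, and B cell transcripts (median 1.17) and the 18S control (-4.89) in p66-/- thymus. Fewer cells of a type and less RNA per cell cannot be told apart in such pooled tissue, and the part of these transcripts and of the control was not tested.

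A term for thymus in the same fit tested whether the effect there differed from that in heart, lung and liver. For p53-/- 28 of the 36 genes had a higher effect in thymus at an adjusted p under 0.05, against 13.8% of all genes, and none a lower one, against 6.35%. For p66-/- 31 of 38 were higher, against 16.6%, and none was lower, against 7.85%. The 31 include Tra2a and Srpk2, whose WT values outside thymus entered the choice of the families. Each effect in thymus rests on 1 pair of arrays, assumed to vary like the others. Tra2b had a difference of effects of 2.02 (limma adjusted p = 0.00214) for p53-/- and of 1.72 (adjusted p = 0.00473) for p66-/-, and that of Hnrnpl for p53-/- missed the threshold at 0.69 (adjusted p = 0.136). Both genes had passed for p53-/- over heart, lung and liver, and that effect enters the difference, so its p-value is no independent test.

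Another 5 lists were counted over heart, lung and liver, covering the core spliceosome, other splicing regulators, other enzymes and carriers of SR proteins, nonsense-mediated decay and heat shock. These lists were chosen with earlier results of these data known, so their counts are a description and no independent test. In this fit 2.01% of all genes were lower in p53-/- mice and 0.104% higher. Of 49 measured core spliceosome genes, 1 was lower in p53-/- mice by limma, Luc7l3, a U1-associated factor (-0.81, adjusted p = 0.0399), and none was higher. Dhx15 (-0.83), Snrpa1 (-0.80) and Prpf19 (-0.76) had the next differences and did not pass. Of 49 other splicing regulators 4 were lower and none higher. They were Sfpq, a nuclear paraspeckle protein (-1.52, adjusted p = 0.0201), Celf2 (-1.12, adjusted p = 0.0162), Pnn (-1.08, adjusted p = 0.0337) and Srrm2, a scaffold of nuclear speckles (-0.98, adjusted p = 0.0216). Of 17 other kinases, phosphatases and carriers of SR proteins 2 were lower, Prpf4b (-1.30, adjusted p = 0.04) and Cdk13 (-0.75, adjusted p = 0.0361), whereas Tnpo1 (-0.69), an import receptor, and Ppp1cc (-0.68) did not pass.

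Of 12 genes of nonsense-mediated decay none passed in either direction, with Pnrc2 at -1.06 (adjusted p = 0.0592), Rbm8a at -0.50, Eif4a3 at 0.43 and Upf1 at 0.36. Of 13 heat shock genes 8 were lower and none higher, against 2.01% and 0.104% of all genes. This list was chosen with earlier results of these data known. Its counts and p-values are thus a description of these arrays and no independent test. Hspa1b averaged -3.45 (adjusted p = 0.000559), Hspa1a -2.32 (adjusted p = 0.0312), Hsph1 -2.003 (adjusted p = 0.00207) and Dnajb1 -1.84 (adjusted p = 0.000473). In p66-/- mice 2 heat shock genes were lower, Hspa1b (-2.30, adjusted p = 0.0303) and Dnajb1 (-1.49, adjusted p = 0.00482), and no gene of the other 4 lists passed. The lists' median differences in p53-/- mice were -0.14 for the core spliceosome, -0.19 for other regulators, -0.24 for the other kinases, 0.02 for decay and -0.95 for heat shock, against -0.22 for the 36 genes and 0.04 for all genes.

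**Figure D4:**
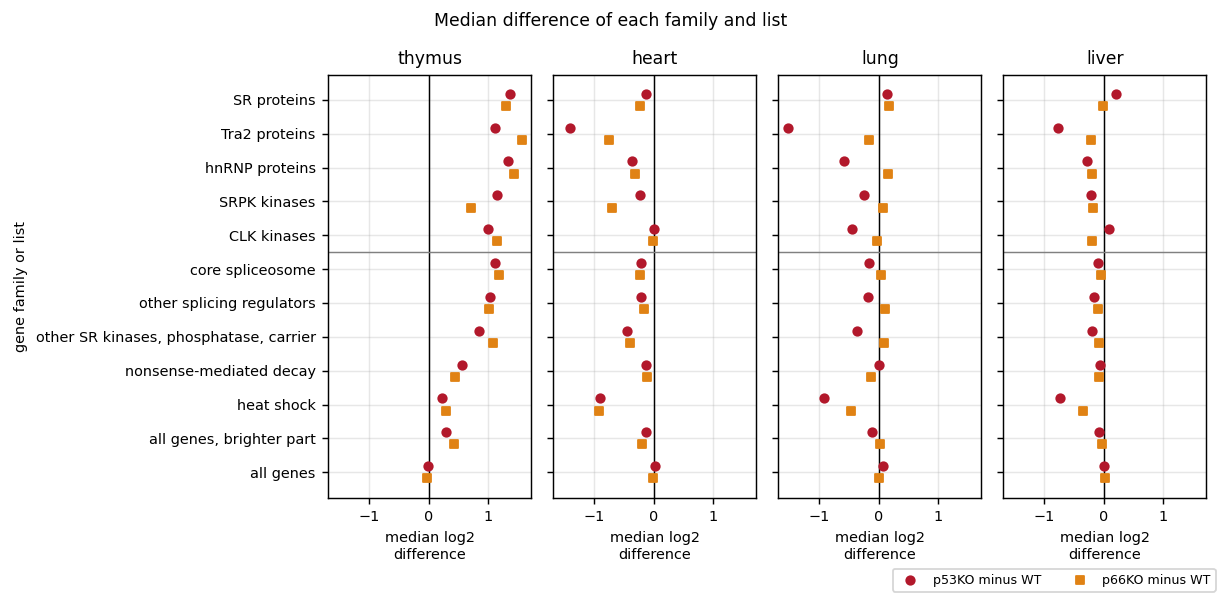
Median log2 difference from WT (horizontal axes) of the 5 families, 5 further lists and all genes (rows), p53KO in red and p66KO in orange, by tissue. In thymus the medians of the 5 families lie between 0.71 and 1.56 and those of all genes at -0.01 and -0.03, and outside thymus the heat shock list lies farthest below 0 among the 5 further lists. The Tra2 pair holds Tra2a, on whose values the families were chosen. The further lists were chosen with earlier results of these data known.

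Levels of most of these genes differed between tissues. Mean signal over the 3 genotypes was highest in thymus for 27 of the 38 genes, in lung for 9, and in heart and liver for 1 each, and it was lowest in heart for 24 and in liver for 13. In limma, 25 genes were higher in thymus than the mean of the other tissues, against 16.4% of all genes, and 1 was lower, against 17.5%. Clk3 averaged 10.34 ± 0.797 in thymus (SD over the 3 genotypes, n = 3, as for the values that follow), 8.88 ± 0.294 in lung, 8.46 ± 0.0496 in liver and 7.87 ± 0.242 in heart, which put thymus 1.93 above the others (limma adjusted p = 0.00027). Srsf1 (1.71), Srsf3 (1.59) and Srsf11 (1.51) followed, and Srpk3 was the gene lower in thymus (-0.56, limma adjusted p = 0.0225).

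In heart 21 genes were lower, against 20.4% of all genes, and 1 was higher, against 16.3%. Tra2a averaged 7.17 ± 0.845 in heart, against 10.03 ± 1.15 in lung, 9.50 ± 0.799 in thymus and 8.50 ± 0.526 in liver, so that lung and thymus overlapped. Heart was 2.17 below the mean of the others (difference -2.17). Tra2a is among the 21, but no p is given for it. Its values in p53-/- heart, lung and liver had entered the choice of the families. Hnrnpf (-2.14), Srsf1 (-1.74) and Tra2b (-1.64) were the next lowest in heart. Srpk3, the gene higher in heart, averaged 8.06 ± 0.317, against 7.22 ± 0.282 in thymus, 7.58 ± 0.13 in lung and 7.70 ± 0.0398 in liver. Its next brightest probe set, with a mean of 7.36 against 7.64, set heart further apart. That probe set gave 9.35 to 9.46 on the heart arrays and 6.17 to 7.47 on the others.

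In lung 8 genes were higher, against 17.1% of all genes, and none was lower, against 13.1%. They were led by Tra2a (1.64), Hnrnph1 (1.06), Hnrnpf (1.01) and Clk1 (0.95). The value of Tra2a is a description, for the reason given for heart. In liver 13 genes were lower, against 19.5%, and none was higher, against 14.3%. Hnrnph1, a G-run binding protein, averaged 9.25 ± 0.235 in liver, against 9.69 ± 0.159 in heart, 11.15 ± 0.269 in lung and 11.33 ± 0.882 in thymus. Srsf3 (-1.29), Hnrnpdl (-1.21) and Clk1 (-1.12) were next. Srpk2 did not pass in any tissue, and its SD over the genotypes was 0.667 to 1.35. Its values in p53-/- heart, lung and liver, which had entered the choice of the families, enter both, so neither is independent of that choice. Without the WT arrays, which include the array with salivary gland transcripts, 36 genes were higher and 1 lower in thymus, against 24.9% and 24.4% of all genes in that fit, and 1 was higher and 32 lower in heart, against 24.4% and 27.7%. In lung 10 were higher, against 18.4%, and in liver 25 were lower, against 24%. Without the p53-/- arrays 6 genes were higher in thymus, against 5.42% of all genes, and 6 lower in heart, against 9.94%. Without the p66-/- arrays these were 6, against 5.86%, and 4, against 8.68%. In the same 2 fits 2 and 0 were higher in lung, against 11.9% and 10.3%. In liver 4 and 0 were lower, against 10.9% and 11.3%.

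**Figure D5:**
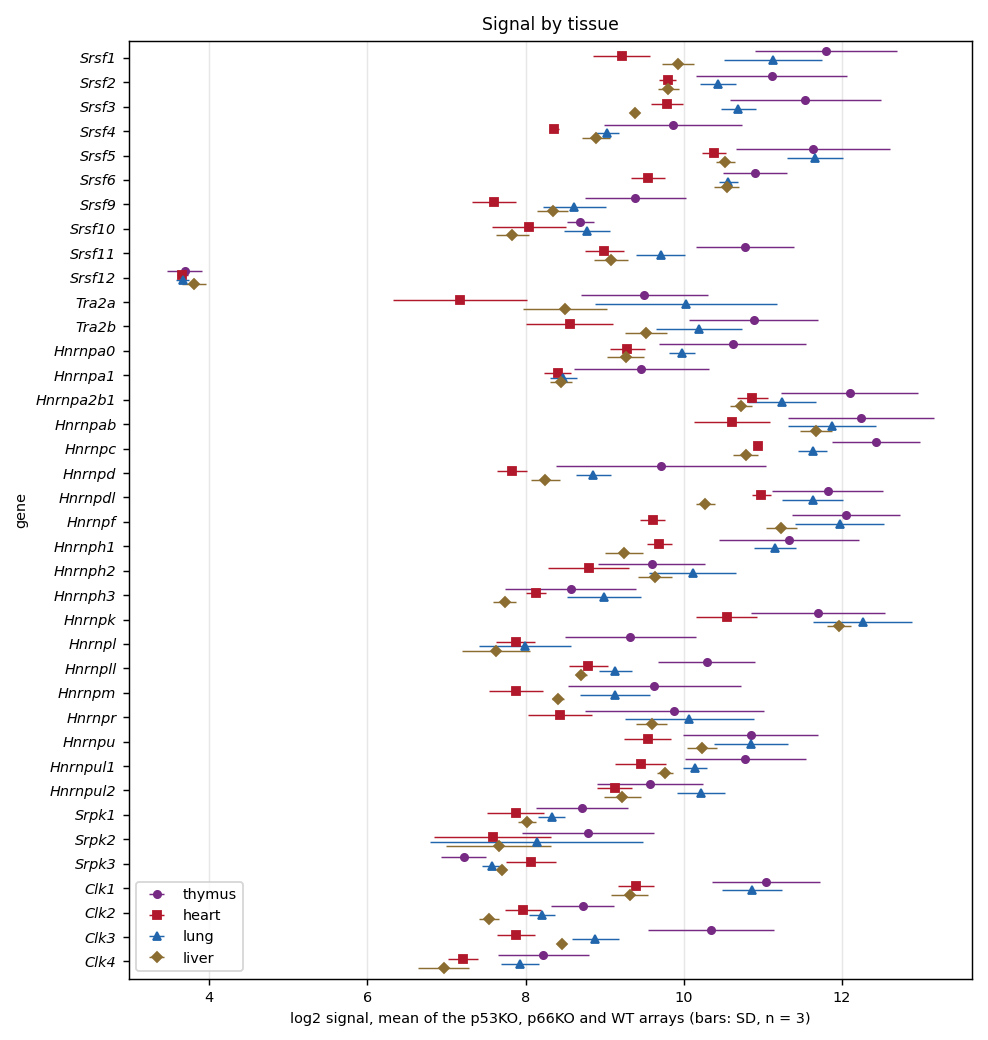
Mean log2 signal of each of the 38 genes (rows) in thymus, heart, lung and liver (horizontal axis), with bars for the SD over the p53KO, p66KO and WT arrays (n = 3). Thymus is highest for 27 genes, and Srpk3 is the gene with heart on top.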

How the data were processed

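Total RNA of 4 tissues from p53-/-, p66-/- and WT mice was measured on 12 Affymetrix mouse genome arrays, 1 per genotype and tissue. Probe set signals were deposited on the log2 scale. Per the submitters' processing notes, the authors used RMA and Partek 6.5. Of 45101 probe sets, 34945 had 1 gene symbol, 932 had several and 9160 had none, and 64 were controls. Each of 18193 genes was read from its probe set with the highest mean.

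Differences between single arrays carry no test. Tests used limma 3.58.1 in R 4.3.3 (lmFit and eBayes on log2 values, tissue as a block, Benjamini-Hochberg over all genes, adjusted p under 0.05). Fits were tested on simulated data. P-values measure the spread over tissues, whose pools may share mice, and array number limits the precision. Tra2a and Srpk2 have no p for p53-/- against WT. They were tested for p66-/- against WT, with WT values that had entered the choice of the families. Those p-values are therefore no independent test of either gene.

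The genes and lists, heat shock included, were chosen with earlier results of these data known. Genes named are Tra2a, Srpk2, the 5 lowest and 3 highest in each comparison, those that passed a test, and the leading genes of each list. Alternatives were another normalization, fold, probe set or block, and leaving out a tissue or genotype. The next brightest probe set, the contrast of the knock-outs, the thymus term and the medians of bright genes were added after seeing the data.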

Additional observations from a re-analysis of the deposited data

Results flagged for a closer look

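The difference between knock-out and WT arrays was higher in thymus than in the other tissues for many of the genes, by limma's term for thymus. It was higher in 28 of 36 genes for p53-/- and 31 of 38 for p66-/- mice, against 13.8% and 16.6% of all genes. For p53-/- mice the effect in thymus exceeded that in heart, lung and liver by 2.41 in Hnrnpab, 2.02 in Tra2b and 1.67 in Hnrnph2 on the log2 scale, with limma adjusted p of 0.00114, 0.00214 and 0.00676. These genes had passed as lower in p53-/- heart, lung and liver together. That lower effect enters the difference, so these p-values are no independent test. All of these differences use the WT thymus array, which held salivary gland transcripts, and the part of those transcripts was not tested.

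Signal outside the main measurement differed too. The 18S control probe sets were 4.27 higher in p53-/- than in WT lung, and in p66-/- thymus they differed from WT by -4.89. Of the probe sets that were not used for their gene, more lay 2-fold or more below WT in p53-/- lung than above it. Those below included probe sets of Hnrnpdl (-1.53), Srsf3 (-1.47), Hnrnph1 (-1.29) and Srsf10 (-1.25). Those above were at 2.04 for Srsf1, 1.31 for Hnrnpu, 1.18 for Srsf2 and 1.17 for Hnrnpf. The same probe sets of Srsf1 and Hnrnpu were 1.79 and 1.14 higher in p66-/- than in WT lung. These are differences of single arrays and were not tested.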

How the results depend on the processing

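Of 240 alternative values of 26 results, 181 stayed within the spread or within 1.5 times the count, and the cause of the other changes was not tested. With 29 and 30 genes 2-fold higher in p53-/- and p66-/- thymus, a 3-fold threshold left 11 and 8, repeated quantile normalization 14 and 12, and cyclic loess within a tissue 8 and 5. The medians became 0.77 and 0.80 with quantile normalization and 0.56 and 0.61 with loess, and 1.11 in p66-/- thymus with the mean of all probe sets. Counts in p53-/- heart (2) and lung (6) became 6 and 14 at 1.5-fold, 0 and 0 at 3-fold, 0 and 2 with quantile normalization or loess, and 1 and 0 with the mean of probe sets. In p66-/- mice, 1.5-fold gave 9 genes in heart, 3 in lung and 1 in liver, and in p53-/- liver 1. Over all 18193 genes, 1.5-fold was reached downwards by 1675 (p53-/- heart) and 2141 (p53-/- lung), and upwards by 701 and 1247. For p66-/- heart, lung and liver, 1841, 378 and 330 of all genes were that far below WT, and 832, 340 and 237 above it. For p53-/- liver these were 528 and 312. No numbers over all genes are given for 3-fold, loess or the mean of probe sets, so those counts have no background. The 1 gene in p66-/- lung was lost (0) at 3-fold, with the mean of probe sets and with the next brightest probe set, and median centring gave 1 in p66-/- liver. The median in p66-/- heart became -0.0175 with quantile normalization and -0.0495 with loess. Genes lower in all of p53-/- heart, lung and liver numbered 10 with quantile normalization or loess, against 18.

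By limma, the 4 calls for p53-/- mice over heart, lung and liver became 1 with quantile normalization or loess over all arrays, 2 with the next brightest probe set, and 0 with the mean of probe sets, tissue as a random block, the arrays of the genotypes compared alone, or without heart, lung or liver. The fit of 4 tissues without thymus gave 4. The p66-/- and WT arrays alone gave 1 call. Calls in thymus (26) and heart (22) fell to 6 and 6 without the p53-/- arrays and to 6 and 4 without the p66-/- arrays. Those in lung (8) fell to 2 and 0. Shares of all genes fell too, to 5.42% and 5.86% higher in thymus and 9.94% and 8.68% lower in heart. Lung gave 5 with median centring, the mean of probe sets or the next brightest probe set. Liver (13) gave 20 with quantile normalization, 8 with median centring or the mean of probe sets, and 25, 4 and 0 without the WT, p53-/- or p66-/- arrays.

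With the next brightest probe set the sign turned in p53-/- mice for 8 of 38 genes in heart, 9 in lung and 7 in liver. Among them or in p66-/- mice were Tra2a in p53-/- heart (0.35) and lung (0.68), Srpk2 in p53-/- liver (0.11) and p66-/- lung (0.19), Hnrnpl in p53-/- heart (-0.12) and lung (-0.21), Hnrnpr (0.18) and Tra2b (0.17) in p53-/- lung, Hnrnpa1 in p53-/- heart (-0.21) and lung (-0.82) and Hnrnpab in p53-/- liver (0.02). Leaving out probe sets that may match several transcripts turned 2 genes in heart, 4 in lung and 4 in liver, among them Hnrnpf (1.17), Hnrnpr (0.18) and Hnrnpa1 (-0.82) in p53-/- lung. No paired analysis was possible because the labels number no replicates, other than the pairing of arrays by tissue in the fits above.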
